A study of Mus musculus with 30 samples.

Results

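Pu.1 binding was compared between microglia of mice with a conditional knockout of the microRNA gene Mir137 (cKO) and control microglia (cWT) through the deposited lists of genotype-specific Pu.1 regions. Every region of both lists was taken: 1017 regions of the cKO list and 44 of the cWT list, together 1061 of the 22399 regions listed over the 10 lists of the series. The cKO mice were Mir137loxP/loxP;Tmem119-CreERT2 and the cWT mice Mir137+/+;Tmem119-CreERT2. All were C57BL/6J, labelled 8 weeks old, and received tamoxifen on 7 consecutive days at 7 to 8 weeks of age. Both genotypes therefore carry the Cre, which is driven from Tmem119, a gene microglia express, and is activated by tamoxifen. The titles give 3 replicates per genotype for Pu.1 (6 of 30 samples), and about 100000 sorted cells of each genotype went into the assay. The series text mentions 4 mice, and nothing says that replicates came from separate mice. By the labels' protocol the assay was CUT&Tag, where an antibody bound to the protein brings in an enzyme that inserts sequencing adapters into nearby DNA, while the series text speaks of ChIP-seq. The other antibodies of the series were against the acetylated histone mark H3K27ac, the promoter mark H3K4me3, RNA polymerase II (Pol II) and its serine 5 phosphorylated form (Pol II Ser5P).

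The lists give 1 value per region and genotype and hold nothing for single replicates. The spread between samples therefore cannot be given, and read depth is unknown. All tests below count regions, and their p-values describe these lists only. The lists are named as genotype-specific, so a site bound alike in both genotypes may stand in neither. A gene without a listed region is therefore not shown to lack Pu.1. The labels' protocol gives one catalogue number for the Pu.1 and H3K4me3 antibodies.

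Pu.1, encoded by Spi1, is an ETS-family transcription factor that recognises a purine-rich sequence around GGAA. In macrophages and microglia it opens chromatin at enhancers and promoters, where it works beside C/EBP, IRF, AP-1 and Runx factors, and it is needed for the cells to form. MicroRNAs such as miR-137 are best known for guiding Argonaute proteins to messenger RNAs through their seed. The title of the series concerns control of transcription by a nuclear microRNA, and Pu.1 is one of the proteins profiled to follow it.

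The sequences behind the results are the miR-137 arm whose seed complement was searched for, and promoter stretches under cKO Pu.1 regions. The mature miR-137-3p, from RefSeq on GRCm38.p6 (chr3:118433901-118433923, plus strand), has its seed, bases 2 to 8, in capitals.
mmu-miR-137-3p: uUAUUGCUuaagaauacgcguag
The 6 promoter stretches are the ones with the highest deposited signal among genes of the lists described further on, leaving out Mef2a and Nlrp3, whose windows lie within the gene. Each is the part of the RefSeq promoter window (GRCm38.p6, the genome release behind mm10) that lies under the region and upstream of the gene. They are written 5′ to 3′ on the gene's own strand. Capitals mark the ETS core GGAAGT, which appears as ACTTCC where it lies on the opposite strand.
Cebpg (chr7:35056753-35056816, minus strand): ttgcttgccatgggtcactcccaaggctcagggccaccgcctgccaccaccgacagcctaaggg
Ccl3 (chr11:83649379-83649618, minus strand): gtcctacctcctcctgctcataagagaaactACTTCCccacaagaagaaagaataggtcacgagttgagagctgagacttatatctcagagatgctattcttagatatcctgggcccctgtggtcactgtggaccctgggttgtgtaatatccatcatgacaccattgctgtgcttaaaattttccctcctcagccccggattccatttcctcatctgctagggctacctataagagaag
Dock2 (chr11:34783906-34783931, minus strand): gagagagagtttaaaaagaggaagga
C1qc (chr4:136892937-136893164, minus strand): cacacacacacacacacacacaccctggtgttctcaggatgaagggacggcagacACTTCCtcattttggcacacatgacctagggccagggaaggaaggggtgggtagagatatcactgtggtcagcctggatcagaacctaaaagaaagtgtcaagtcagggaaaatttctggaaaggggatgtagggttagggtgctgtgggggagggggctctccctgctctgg
Cst3 (chr2:148875544-148875762, minus strand): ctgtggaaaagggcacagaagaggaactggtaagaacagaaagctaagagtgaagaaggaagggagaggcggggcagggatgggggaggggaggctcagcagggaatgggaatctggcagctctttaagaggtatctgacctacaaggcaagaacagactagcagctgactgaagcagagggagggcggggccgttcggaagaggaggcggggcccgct
Tgfbr1 (chr4:47353075-47353221, plus strand): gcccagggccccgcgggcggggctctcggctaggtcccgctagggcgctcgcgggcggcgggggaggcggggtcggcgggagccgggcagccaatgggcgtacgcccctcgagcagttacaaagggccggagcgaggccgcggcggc
Ccl3, a chemokine gene, and C1qc, which encodes a chain of complement C1q, hold the ETS core in these stretches, and in C1qc it extends to the longer Pu.1 match GAGGAAGT. Cebpg, Dock2, Cst3 and Tgfbr1 do not hold it here. The window of Dock2 holds 1 ETS core outside the printed stretch.

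The cKO list was the long one. It held 1017 of the 1061 Pu.1 regions, 95.9% (95% exact Clopper-Pearson interval 94.5 to 97.0%, covering the counting of regions only). The names of the regions carry numbers that run in genome order without repeats, and these reach 1433 for cKO and 467 for cWT when counted from 1. Each is the least number of regions present before selection, and the cKO number was 3.07 times the cWT number. Of these numbers 71.0% stand in the cKO list and 9.42% in the cWT list. The numbers that stand in no list were nearly as many in both genotypes, 416 in cKO and 423 in cWT (ratio 0.983). The same held for the other antibodies, with cKO over cWT ratios of the unlisted numbers from 0.944 (Pol II Ser5P) to 1.04 (H3K27ac). The longer Pu.1 list thus went with a longer numbered set, at nearly equal unlisted numbers. Sequencing depth is not given, and its part in this was not tested.

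**Figure D1:**
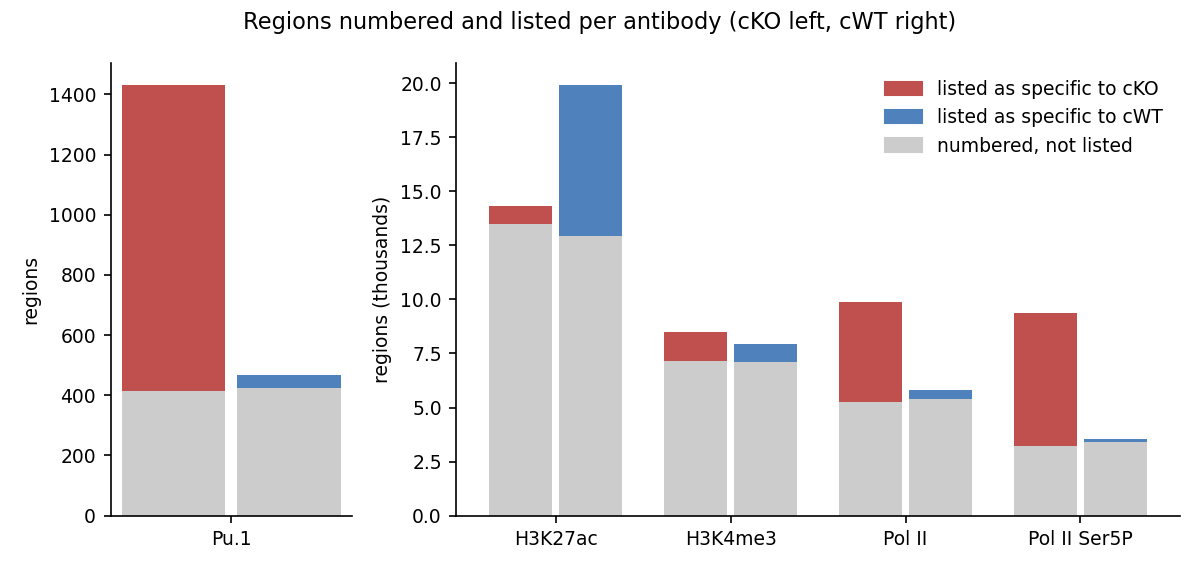
Numbers of regions per antibody, cKO left and cWT right, with Pu.1 on an axis of its own. Grey is the count of numbers that stand in no list (416 in cKO and 423 in cWT for Pu.1), and colour is the count of listed regions (1017 in cKO and 44 in cWT for Pu.1).

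The deposited values within the lists mark few regions. The deposited signal of cKO regions ran from 5.41 to 85.5 with a median of 12.7, and that of cWT regions from 4.66 to 52.2 with a median of 12.5, on a scale the sources used here do not give. The deposited score was a fixed function of the deposited p-value, a multiple of its logarithm held to at most 1000, in all 1017 cKO and all 44 cWT regions, so it adds nothing to the p-value. The median deposited p was 0.752 in the cKO list and 0.856 in the cWT list. By their names 45 cKO and 4 cWT regions were primary peaks and the rest secondary peaks, terms that are not explained. A deposited p under 0.05 was held by 9 cKO regions (0.885%) and 2 cWT regions (4.55%), and an adjusted p under 0.05 by 2 cKO regions and no cWT region. The adjusted p is the last value of each region, which is not named in the lists and was read as such. What these p-values test is not given, and across cKO regions a lower p went with a higher signal (Spearman's rho −0.760, a description over 1017 regions that share their libraries).

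The 2 cKO regions past the adjusted threshold lay within genes but not near a start, as did 34.0% of the cKO list. One is in Chl1, a neural cell adhesion molecule, at chromosome 6, 103648970 to 103649387, with a signal of 85.5. The other is in Ppp1r9a, which encodes the actin-binding protein neurabin, at 4923764 to 4924274 of the same chromosome, with a signal of 72.5. Neither overlapped a region of another antibody. The next strongest was in Dclk2 (chromosome 3, 86910288 to 86910673, signal 49.6), and all others were at 30.0 or below. Of the 9 regions with p under 0.05, none lay within 2 kb of a gene start. Of the 9, 3 lay between 3 and 8 Mb of chromosome 14, among predicted genes, and 1 between genes near the start of chromosome 11 (3100365 to 3100656). That stretch of chromosome 14 held 37 cKO Pu.1 regions, 3.64% of the list, against 0.370% of protein-coding genes. It held no cWT Pu.1 region, which says little in a list of 44. The stretch was not particular to Pu.1. In the cKO lists it held 26 of 847 H3K27ac, 26 of 1331 H3K4me3, 42 of 4647 Pol II and 83 of 6163 Ser5P regions. In the cWT lists it held 34 of 6995 H3K27ac, 3 of 834 H3K4me3, 10 of 394 Pol II and 1 of 127 Ser5P regions. Whether reads there come from several copies of a sequence was not tested.

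Some listed regions adjoined one another. In the cKO list 25 pairs of regions touched end to end, and all 25 pairs carried the same signal. Joining them left 992 cKO regions. Between the lists, 7 cWT regions lay within 1 kb of a cKO region, and 3 of them overlapped one. In Muc3, for example, the cKO region at chromosome 5, 137152532 to 137152889 (signal 22.9) followed the cWT region at 137152227 to 137152523 (signal 25.6). At Sv2b the 2 lists shared 51 bp.

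Pu.1 regions of the cKO list lay mostly away from gene starts. Within 2 kb of the start of a protein-coding gene were 315 of 1017 (31.0%), within a gene but not near a start 346 (34.0%), and between genes 356 (35.0%). In the cWT list these classes held 6 (13.6%), 14 (31.8%) and 24 (54.5%) of 44 regions. For genes without a start in the promoter table, either end of the gene stood in for the start. Midpoints within 2 kb of a start of known strand numbered 259 in the cKO list and 4 in the cWT list. The share near gene starts was higher in cKO than in cWT regions (odds ratio 2.66, 95% interval 1.15 to 6.17, two-sided Fisher's exact p = 0.0120). The lists hold unlike parts of their numbered regions, 71.0% for cKO and 9.42% for cWT, chosen by a rule that is not stated. The part of this selection in the difference was not tested. The median distance to the nearest gene start was 10.8 kb in the cKO list and 32.4 kb in the cWT list. The 3 classes of cKO regions were alike in width (medians 290, 290 and 291 bp) and in median signal (12.4, 12.5 and 12.9).

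Against the other cKO lists, Pu.1 lay near gene starts less often than H3K4me3 and both polymerase forms, while the difference from H3K27ac did not pass the test. The share near gene starts was 31.0% for Pu.1 and 34.7% for H3K27ac (odds ratio 0.844, 95% interval 0.695 to 1.02, Benjamini-Hochberg adjusted Fisher's exact p = 0.0918 over 4 comparisons). It was 79.4% for H3K4me3 (odds ratio 0.117, interval 0.0966 to 0.141, adjusted Fisher's exact p = 2.33e-126). For Pol II it was 51.8% (odds ratio 0.418, 0.362 to 0.483, adjusted Fisher's exact p = 6.97e-34) and for Pol II Ser5P 54.5% (0.374, 0.325 to 0.432, adjusted p = 1.60e-44). The cKO Pu.1 and H3K4me3 lists shared 55 Pu.1 regions (5.41% of the Pu.1 list) and 54 H3K4me3 regions (4.06% of that list). Whether one antibody was used for both was not tested.

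Close to gene starts, Pu.1 sat further upstream than the other marks. Among 259 cKO Pu.1 regions with their midpoint within 2 kb of a start of known strand, 57.9% lay upstream (95% exact interval 51.6 to 64.0%), and the median was 78 bp upstream. The upstream share was 27.3% for H3K27ac (21.6 to 33.6%), 19.9% for H3K4me3 (17.3 to 22.7%), 36.6% for Pol II (34.4 to 38.8%) and 35.2% for Ser5P (33.4 to 37.0%), with medians from 76 to 184 bp downstream. This comparison was made after the values were seen and was not tested. Examples were Cx3cr1, the fractalkine receptor of microglia, where the midpoint lay 145 bp upstream of the start, and Cst3, which encodes the protease inhibitor cystatin C, where it lay 267 bp upstream.

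**Figure D2:**
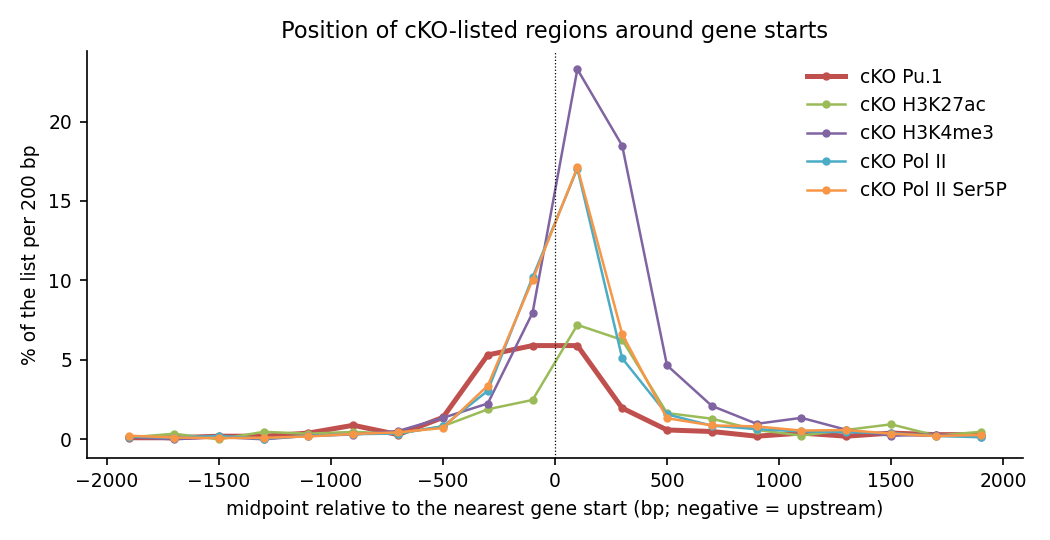
Share of each cKO list (y axis, percent per 200 bp) by the distance of the region's midpoint from the nearest gene start of known strand (x axis, bp, negative upstream). The Pu.1 line stands at 5.31, 5.90 and 5.90% in the 3 bins from 400 bp upstream to 200 bp downstream, while the other 4 lines peak in the first 200 bp downstream.

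Promoters under cKO Pu.1 regions held ETS sequences more often than promoters in general. RefSeq promoter windows, which run from 250 bases before to 50 after a start, were overlapped by a cKO Pu.1 region in 271 cases, at 236 genes. The ETS core GGAAGT, searched on both strands, was in 120 of the 271 (44.3%, 95% exact interval 38.3 to 50.4%), against 23.8% of all 32851 windows. The longer GAGGAAGT, whose last 6 letters are the ETS core, was in 23 (8.49%, 5.46 to 12.5%), against 3.20%. Windows under the other cKO lists held GGAAGT in 30.1% (H3K27ac), 33.3% (H3K4me3), 32.8% (Pol II) and 32.5% (Ser5P), and GAGGAAGT in 2.17 to 4.22%. Base composition differed too. The median G and C content was 62.0% in the Pu.1 windows and 62.3 to 63.7% in those of the other cKO lists, against 52.7% in all windows. Its part in these shares was not tested.

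Taking 1 window per gene, GGAAGT occurred 2.62 times per kb within 50 bp of the midpoint of the Pu.1 region, 2.59 times from 50 to 100 bp, 2.42 times from 100 to 150 bp and 1.69 times from 150 to 300 bp, against 0.969 per kb in all windows. These 4 rates rest on 32, 32, 29 and 43 occurrences. The rate in all windows is matched neither for base composition nor for position in the promoter. Such rates were not computed for the other cKO lists, so a placement particular to Pu.1 regions was not tested. The other sequences, searched on both strands too, were no more frequent in the Pu.1 windows than in all windows. The AP-1 sequence TGANTCA was in 1.85% of the Pu.1 windows (0.602 to 4.25%), against 7.81% of all, and the C/EBP sequence TTGCNNAA in 7.38% (4.57 to 11.2%), against 10.8%. The interferon-stimulated response element was in 2.58% (1.04 to 5.25%), against 3.44%. AGCAATA, the complement of the miR-137-3p seed, was in 2 of 271 windows (0.738%, 0.0895 to 2.64%), against 2.16%. Windows under the other cKO lists held AP-1 in 3.53 to 6.63% and C/EBP in 6.18 to 7.20%. They held the interferon sequence in 2.12 to 3.61% and AGCAATA in 0 to 1.31%. Low shares of these sequences were thus not particular to the Pu.1 windows. AP-1 was lowest under Pu.1, in 5 windows. Its interval there included the shares under cKO H3K4me3 (3.53%), Pol II (3.56%) and Ser5P (3.88%), and that of H3K27ac (6.63%) lay above it. Of the 6 cWT windows, 1 held GGAAGT. These matches describe letters in promoter windows. Pu.1 regions outside promoters were not searched, since no genome sequence was used here.

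**Figure D3:**
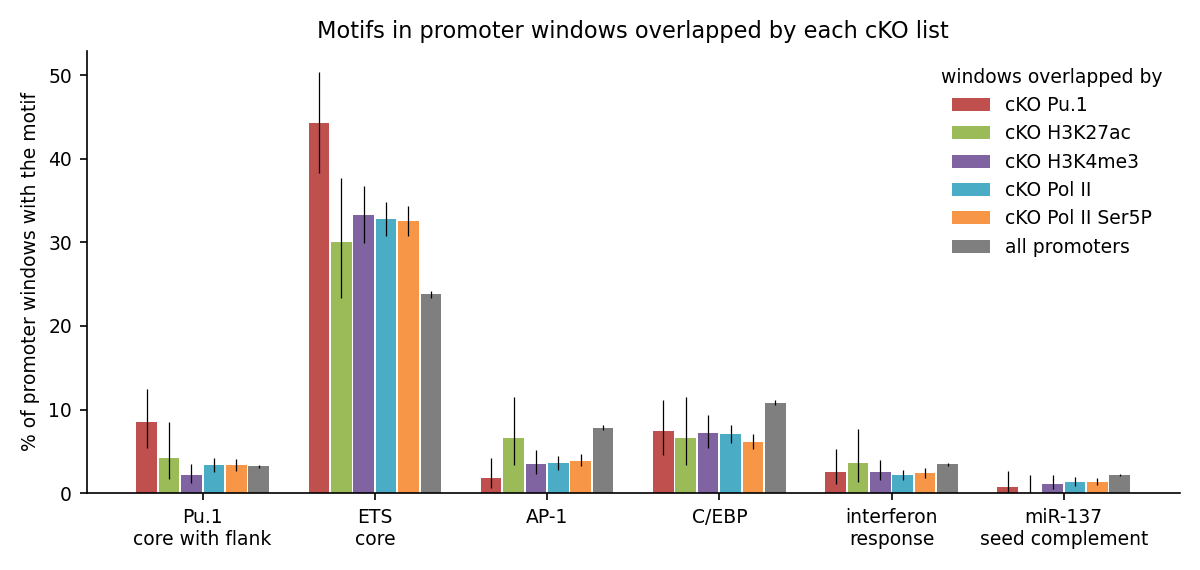
Share of promoter windows with each sequence (y axis, percent, bars with 95% exact intervals) for windows overlapped by each cKO list and for all windows. The ETS core reaches 44.3% under Pu.1, against 30.1 to 33.3% under the other cKO lists and 23.8% in all windows.

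Regions were next assigned to the protein-coding gene with the nearest start within 100 kb. For genes whose start was not in the promoter table either gene end was used, and distances for them are to the nearer end. The cKO list gave 794 genes, 3.63% of the 21883 protein-coding genes, and the cWT list 31 genes, 0.142%. Of these, 7 genes had regions of both genotypes, 787 had cKO regions alone and 24 had cWT regions alone. Most genes had 1 cKO region (687), while 88 had 2, 16 had 3 and 3 had 4.

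The genes with most cKO regions were Pip4k2a, a phosphoinositide kinase, Ninj2, a cell-surface adhesion protein, and the predicted gene Gm15319, with 4 each. Pip4k2a had regions on both sides of its start, the strongest 6.93 kb upstream with a signal of 18.4. The 4 regions of Ninj2 all lay within the gene, between 120112595 and 120174706 of chromosome 6. Of these 2 touched, so joined regions number 3. Pla2g4a, which encodes the cytosolic phospholipase A2 that releases arachidonic acid, had 3 regions, 1 of them 240 bp upstream of a start. Ifngr2, a subunit of the interferon gamma receptor, had 3, of which 1 lay 257 bp upstream of its start and the other 2 overlapped cKO Pol II Ser5P regions. Trib1, the pseudokinase that directs C/EBP proteins to turnover, had 3 between 64.2 and 87.5 kb from the gene, and each overlapped a cKO polymerase region. The 3 regions of Ier5, an immediate early gene, lay 28.8 to 49.0 kb downstream of its start. Pag1, an adaptor that recruits the kinase Csk, and Cdk19, a Mediator kinase, had 3 each, or 2 once touching regions are joined. The regions counted for Cyp51 lay within its neighbour Akap9.

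Neither the deleted microRNA gene nor Spi1 or Jdp2 had a listed Pu.1 region. The nearest cKO region to Mir137 (chromosome 3, 118433857 to 118433929) was 2531 kb away and the nearest cWT region 54917 kb, so the Pu.1 lists give no reading of the deletion. Spi1, the gene of Pu.1 itself, had its nearest cKO region 67.7 kb away, assigned to Madd. Jdp2, an AP-1 family factor, had one 65.4 kb away, within Batf.

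The gene lists that follow overlap one another and carry no test. None of their cKO regions was among those with a deposited p under 0.05. The lowest deposited p was 0.194, at Trib1, and those of Tgfbr1 and Cx3cr1, for example, were 0.923 and 0.913. Homeostatic microglia genes, those that mark resting microglia, had cKO Pu.1 regions at 11 of 33 members and cWT regions at none, where 3.63% and 0.142% of all protein-coding genes had one. Each of the 11 had 1 region, and 6 of the 33 had one within 10 kb of the start, against 2.09% of all protein-coding genes. Near the start these were Mef2a, a transcription factor (signal 18.5, 287 bp upstream), Cst3 (12.9), Tgfbr1, a TGF-beta receptor (9.19, midpoint 24 bp downstream), and Cx3cr1 (8.40). Within the gene were, among others, Golm1 (13.8), Bin1, a membrane-shaping protein (13.2), Csf1r, the receptor for CSF1 and IL-34 (13, chromosome 18, 61108320 to 61108717), and Entpd1, an ATP-cleaving ectoenzyme (9.24). Tyrobp, the signalling adaptor of Trem2, had its region 19.1 kb away (17.6), and Selplg 9.51 kb away (7.76). Of the 12 markers used for the check of cell type 3 had a cKO region, Csf1r and Cx3cr1 among them, and P2ry12, Tmem119, Sall1 and Trem2 were among the 9 without one.

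Macrophage genes known as Pu.1 targets had cKO regions at 11 of 24 members (45.8%), 6 of them within 10 kb. Of all protein-coding genes 3.63% had one, and 2.09% within 10 kb. Near an end of the gene were Cd68, a lysosomal membrane protein (12.9, midpoint 196 bp downstream of the start), and Tlr4, the receptor for lipopolysaccharide (12.2). Mrc1, the mannose receptor (20.6), and Itgb2, the beta chain of several leukocyte integrins (9.73), had theirs within the gene. Syk (17.1), Fcgr1 (12.7), Adgre1 (10.7) and Ptprc (9.53) had theirs 7.16 to 16.8 kb away between genes.

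Of the Pu.1, ETS, IRF and C/EBP factors, 9 of 32 had cKO regions (28.1%, against 3.63% of all protein-coding genes). Those of Etv6, Irf2, Runx1 and Fli1 lay within the gene, and those of Trib1, Cebpa and Cebpb over 20 kb from it. Besides Trib1, Cebpg (18 at the stronger, 381 bp upstream), Etv6, Cebpa and Cebpb had 2 each. Those of Cebpa lay 20.1 kb upstream and 31.9 kb downstream, and those of Cebpb 71.2 and 86.6 kb downstream. Runx1 had 1 region 298 bp upstream of one of its starts (8.96), while Irf1, Irf2 and Fli1 had 1 each. Within 10 kb of a start 3 of the 32 had a region, against 2.09% of all protein-coding genes. Of the AP-1 and Maf factors 5 of 17 had a cKO region within 100 kb (29.4%, against 3.63%). Batf had 2 (16.8 and 13.4), Fos had 1 that lay 59.3 kb downstream (21.1), and Batf3 and Fosb had 1 each.

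Among genes of cell function, 8 of 30 phagocytosis and lysosome genes had cKO regions (26.7%, against 3.63% of all protein-coding genes). These included Tfeb, a regulator of lysosome genes (15.7), Dock2 (14.9) and Grn, which encodes progranulin (14.2). Complement and Fc receptor genes had cKO regions at 5 of 17 (29.4%). Near the start were those of C1qc (13, 172 bp upstream) and Fcer1g, the common Fc receptor gamma chain (8.95, 242 bp upstream). Of the inflammatory cytokine and NF-kB genes 7 of 34 had a cKO region (20.6%), led by Tnfrsf1b, a TNF receptor, and Nlrp3, the inflammasome sensor, with 2 each. The regions of Nlrp3 had signals of 13.4 and 7.26, lay within 240 bp of a start and overlapped cKO Pol II Ser5P regions. Disease-associated microglia genes had them at 6 of 30, with 2 at Fth1, the ferritin heavy chain, and 1 at Ccl3 (17.9, midpoint 40 bp upstream).

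Against the 3.63% of all protein-coding genes, interferon response genes had cKO regions at 2 of 28 (7.14%, Trim25 and Irf1), reported miR-137 target genes at 1 of 22 (4.55%, Cdk6), and microRNA processing and Argonaute genes at 1 of 14 (7.14%, Tarbp2). With 1 or 2 members each, these counts do not set the lists apart from all genes. Immediate early and dissociation genes, which can be switched on while cells are isolated, had 5 of 20 (25%). Of these, 1 had a region within 10 kb of a start, where 2.09% of all protein-coding genes had one. Of the 8 border macrophage and monocyte markers only Mrc1 had a region. The markers of neutrophils (0 of 6), lymphocytes (0 of 8), neurons (0 of 8), astrocytes (0 of 6), oligodendrocytes (0 of 8) and endothelium (0 of 6) had none in either list. At a share of 3.63% few of these 42 genes would carry a region in any case, so the 0 says little about them.

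**Figure D4:**
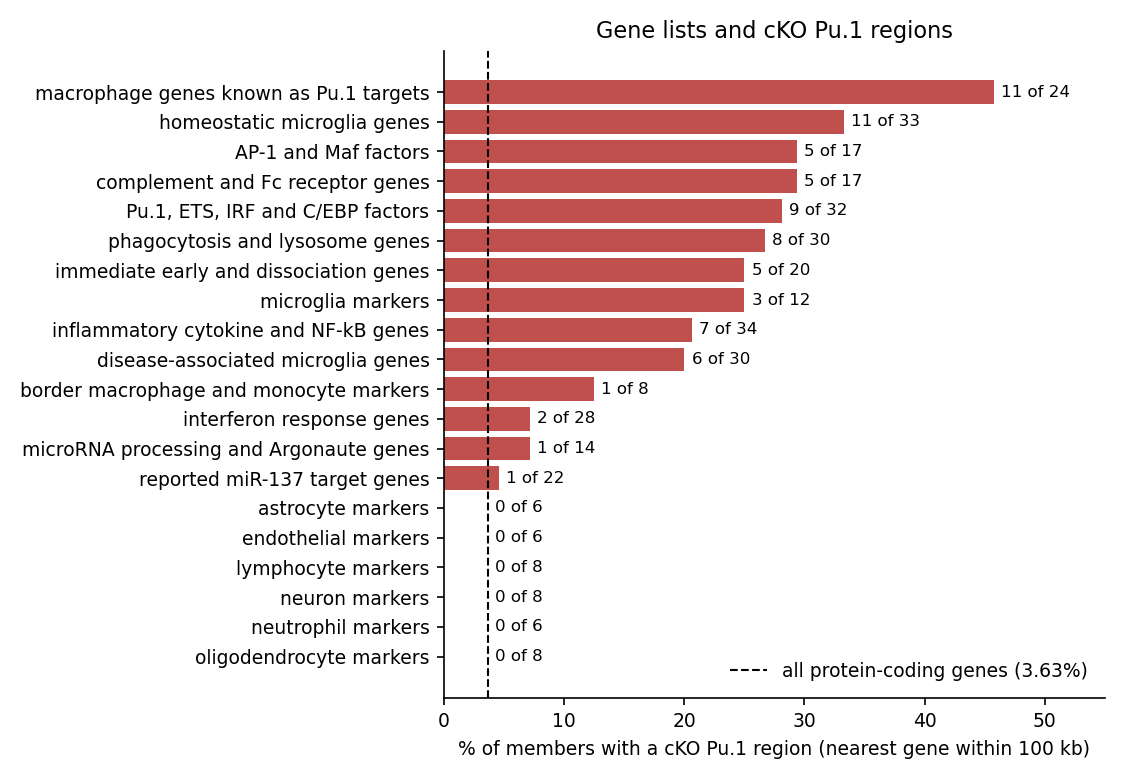
Share of each gene list with at least 1 cKO Pu.1 region (bars, percent, with counts), beside the 3.63% of all protein-coding genes (dashed line). The macrophage genes known as Pu.1 targets reach 11 of 24 and the homeostatic genes 11 of 33, while the 6 lists of other cell types are at 0.

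Taken as 1 set of 87 genes, the homeostatic, Pu.1 target and factor lists had cKO Pu.1 regions at 30 (34.5%, against 3.63% of all genes) and cWT Pu.1 regions at none (against 0.142%). The same set was also frequent in the other cKO lists, at 57.5% in Pol II Ser5P (against 20.3% of all genes), 50.6% in Pol II (16.1%), 18.4% in H3K4me3 (5.63%) and 17.2% in H3K27ac (3.20%). In the cWT lists the set was at 54.0% in H3K27ac (19.5%), 14.9% in H3K4me3 (3.55%), 10.3% in Pol II (1.53%) and 2 of 87 genes in Pol II Ser5P (0.512%). With a limit of 10 kb, 14 of the 87 genes had a cKO Pu.1 region (2.09% of all genes) and none a cWT region (0.0503%). Counting regions that lie on the gene itself, 19 had a cKO region (2.60%) and none a cWT region (0.0777%). These counts carry no test, and the comparison is with all protein-coding genes, including those silent in microglia.

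The last question was what lay at the Pu.1 regions in the other lists. Of the 1017 cKO regions, 490 (48.2%) overlapped at least 1 region of another antibody by 1 bp or more, and 527 (51.8%) overlapped none. Of the 44 cWT regions, 21 overlapped one. Pol II Ser5P of cKO was the most frequent partner, at 305 cKO Pu.1 regions (30.0%, 95% exact interval 27.2 to 32.9%), which is 4.88% of the Ser5P list. Pol II of cKO followed at 172 (16.9%, 14.7 to 19.4%), which is 3.68% of its list. The much shorter cWT lists overlapped fewer Pu.1 regions but with a larger share of their own, 14 Pu.1 regions and 11.0% of the list for Pol II Ser5P, and 29 and 7.11% for Pol II. Regions of the cWT Pu.1 list overlapped cKO Pol II Ser5P in 11 of 44 cases (25%) and cKO Pol II in 5 (11.4%), and their difference from cKO Pu.1 regions was not tested. Together the cKO polymerase lists covered 384 Pu.1 regions (37.8%), of which 93 overlapped both.

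By number of Pu.1 regions, overlap with histone marks was lower than with the cKO polymerase lists. For H3K27ac more of it came from the cWT list. List lengths differed, with 6163 cKO Pol II Ser5P and 4647 cKO Pol II regions. The H3K27ac lists held 847 cKO and 6995 cWT regions, and the H3K4me3 lists 1331 and 834. The part of list length in these counts was not tested. The cKO and cWT H3K27ac lists overlapped 22 (2.16%) and 78 (7.67%) of the cKO Pu.1 regions, which is 2.48% of the cKO and 1.12% of the longer cWT H3K27ac list. At 39 regions a cKO Pu.1 region, a cWT H3K27ac region and a cKO polymerase region coincided. Pag1 had such a site within the gene (chromosome 3, 9826029 to 9826256), and Batf had one at 85710727 to 85711033 of chromosome 12. The cKO and cWT H3K4me3 lists overlapped 55 (5.41%) and 16 (1.57%) cKO Pu.1 regions, which is 4.06% and 1.92% of these lists. By share of its own list, cKO H3K4me3 thus stood above cKO Pol II (3.68%) and below cKO Pol II Ser5P (4.88%).

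Polymerase regions met Pu.1 less often at gene starts than elsewhere. Of the 315 cKO Pu.1 regions within 2 kb of a start, 75 (23.8%) overlapped a cKO polymerase region, against 309 of the 702 others (44.0%; odds ratio 0.399, 95% interval 0.296 to 0.538, two-sided Fisher's exact p = 4.10e-10). This ran opposite to the position of the polymerase lists themselves, which lay near gene starts more often than Pu.1 did. Both polymerase lists gave a lower share near starts, Ser5P with 63 of 315 near starts and 34.5% elsewhere, and Pol II with 8.89% near starts and 20.5% elsewhere. The share was 47.4% for regions within genes and 40.7% for those between genes. No listed region of any other antibody lay at 65.7% of the regions near starts, at 42.8% of those within genes and at 48.3% of those between genes. How regions were chosen for a list is not stated. Whether a promoter with polymerase in both genotypes would carry a listed polymerase region is therefore unknown, and the part of such sites was not tested.

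**Figure D5:**
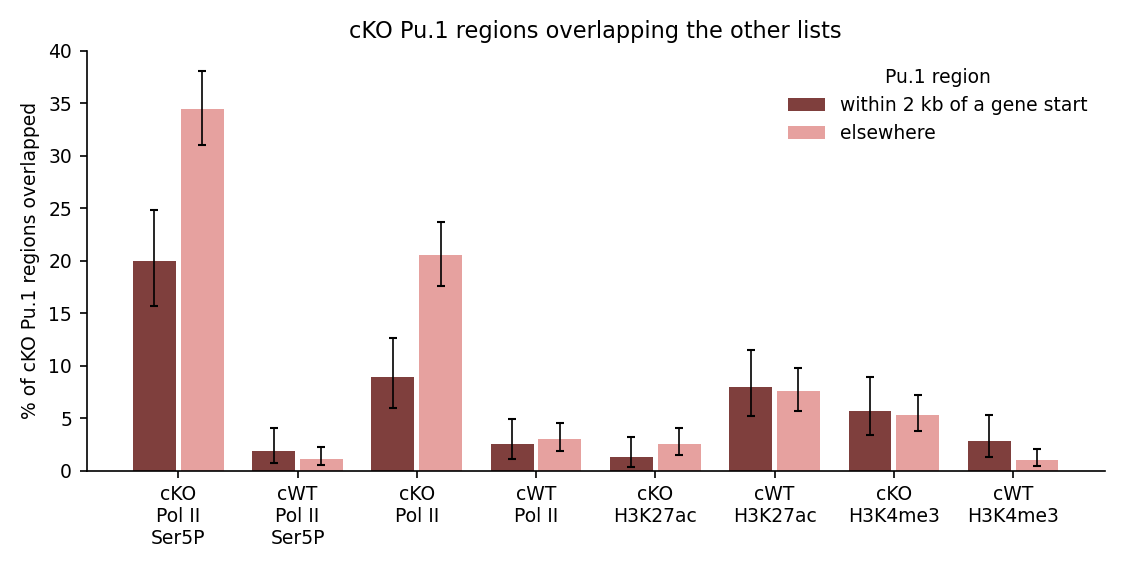
Share of cKO Pu.1 regions overlapped by each other list (y axis, percent, bars with 95% exact intervals), for regions within 2 kb of a gene start (dark) and elsewhere (light). The intervals of the dark and light bars do not overlap for cKO Pol II Ser5P and cKO Pol II.

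The strength of a cKO Pu.1 region went little with these features. With the regions divided into 4 groups by signal, from lowest to highest, the share near gene starts was 30.2, 33.5, 34.3 and 26.0%, and the share overlapped by cKO polymerase 42.0, 37.0, 38.2 and 33.9%.

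No gene of the 20 lists had a region in the cWT list, where 0.142% of all protein-coding genes had one, so nothing is read from that 0. The strongest cWT region, inside Lars2 (chromosome 9, 123461875 to 123462178, signal 52.2), overlapped cWT regions of H3K27ac and Pol II Ser5P as well. The one with the lowest deposited p (0.0362, signal 12.6) lay at chromosome 2, 98664971 to 98665205, 2347 kb from the nearest gene start. Of the 44 regions, 5 (11.4%) lay in 1 Mb windows with at least 10 predicted coding genes or in the first 3.5 Mb of a chromosome. In the cKO list 5.70% did. Chromosome 9 held 10 of the 44 regions (22.7%), against 4.23% of cKO regions, and 3 of the 10 lay between 3004040 and 3011063, where the nearest protein-coding gene start was over 300 kb away. Of the 6 counted near a gene start, 4 lay at a known start. These were at Pkm, the pyruvate kinase of glycolysis (355 bp away), Oser1 (286 bp), Hdlbp (246 bp) and Duxf3 (1039 bp). The others were at Gbp9, a guanylate-binding protein (187 bp), and Trf, which encodes transferrin (320 bp). Neither had a start in the promoter table, so these distances are to an end of the gene. The signals of the 6 lay between 6.18 and 15.5. Within 1 kb of the cWT region at Hdlbp (signal 8.76) stood a cKO region (signal 15.7), which overlapped Hdlbp but was assigned to Septin2. Signals were not compared between the lists. The cWT region nearest to Jdp2 lay 213 kb from it and was assigned to Tmed10.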

How the data were processed

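CUT&Tag libraries of sorted mouse microglia were made with 5 antibodies, 3 replicates per genotype. Per the submitters' processing notes, which name tools and builds without their roles, these were HOMER 4.11, bedtools 2.30.0, MACS2 2.2.7.1 and Bowtie2 2.4.4, with mm10 and GRCm38. Their settings, how replicates were combined and how regions were chosen for a genotype's list are not stated there. The deposited lists hold 1 line per region with a score, a signal and a p-value as the authors wrote them, without a header, followed by a value read as the adjusted p. The deposited score follows from the deposited p-value. The authors' scale of the signal is not given, so it was used only to describe and rank regions within a list.

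Lists were assigned to genotype and antibody by their names. Gene positions came from RefSeq GRCm38.p6: 17491 of 21883 protein-coding genes had a start in the promoter table, and both ends stood in for the start in the other 4392. A region was near a start when its nearest edge lay within 2 kb, and it was assigned to the protein-coding gene with the nearest start to its midpoint within 100 kb. Regions overlapped when they shared at least 1 bp. Shares carry exact Clopper-Pearson 95% intervals, which cover counting only, and were compared with two-sided Fisher's exact tests, beside odds ratios and intervals computed after adding 0.5 to each cell. P-values over 4 comparisons were adjusted by Benjamini-Hochberg. Scripts (Python 3.11.15, numpy 2.4.6, pandas 2.3.3, scipy 1.17.1, matplotlib 3.10.9) were tested on simulated data. Named genes are the 20 with most cKO regions and members of the gene lists with a region; the choice of examples among them was made after their values were seen, and some members are counted but not reported by name here. The regions, lists and tests were chosen with earlier results of these data known. Sequences outside promoter windows were not used here.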

Additional observations from a re-analysis of the deposited data

How the results depend on the processing

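No paired analysis was possible because the lists hold no value per replicate, and for the same reason no replicate could be left out. Of the recomputed values, 31 moved by more than their interval or by over 1.5 times, and 86 did not. The higher share near gene starts in cKO than in cWT regions (odds ratios 2.29 to 3.07) and the lower polymerase overlap near starts (0.372 to 0.426) kept their direction and passed the test in every alternative run.

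The cKO share of Pu.1 was 97.0% by base pairs, 99.2% for regions of at least 300 bp and 81.8% for a deposited p under 0.05 (9 cKO and 2 cWT regions). Allowing 1 kb between regions, overlap was 20.3% with cKO Pol II, 33.9% with cKO Pol II Ser5P, 11.2% with cWT H3K27ac and 2.95% with cWT H3K4me3. Among the 50% of regions with the lower p, overlap with cWT Pol II Ser5P was 2.76%.

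Genes with cKO regions alone numbered 458 within 10 kb and 414 for the regions with the lower p. Genes with cWT regions alone numbered 11 in both of these and 12 by gene spans.

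List counts depended on distance. Within 10 kb they were 6 homeostatic genes, 3 Pu.1, ETS, IRF and C/EBP factors, 2 AP-1 and Maf factors, 6 Pu.1 targets, 4 phagocytosis, 3 disease-associated, 1 interferon, 3 complement and 1 immediate early gene, and 0 border macrophage markers. By gene spans they were 4 factors, 1 AP-1 factor, 7 Pu.1 targets, 2 disease-associated, 0 interferon, 2 complement, 0 immediate early and 2 microRNA genes. Fewer regions can be assigned within 10 kb, where the share of all genes is 2.09% (2.60% by spans). Runs with either end of every gene, without multi-copy and chromosome-start windows, with touching regions merged, or with 1 promoter window per gene or protein-coding genes only were chosen after seeing the data. Read depth is not in the lists, so the reach of either list at weak sites is unknown.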
